A study of Homo sapiens with 12 samples.

Results

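The epidermal growth factor (EGF) receptor family and its ligands were followed through 12 RNA sequencing libraries of MDA-MB-231 cells. The members were chosen by name: the receptor genes EGFR, ERBB2 and ERBB3, and the ligand genes AREG, EREG, HBEGF, TGFA, BTC and NRG1. All 9 matched a gene identifier in the deposited counts, 9 of 64252 identifiers in all, and all 9 were among the 15094 genes that passed the filter on low counts. MDA-MB-231 is a human triple-negative breast cancer line of epithelial adenocarcinoma origin. Its cells were transfected, with a lipid reagent, with plasmid DNA for Dicer, the ribonuclease that cuts microRNA precursors. The 4 groups were wild-type plasmid, Mutation_1 plasmid, Mutation_2 plasmid and Mutation_3 plasmid (below, mutation 1, 2 and 3), with 3 libraries in each. Every group, the wild-type group included, received a Dicer plasmid, and the labels do not say which residue each mutation changes. No untransfected or empty-vector cells were analysed here. Whether the libraries of a group come from separate cultures is not stated, so each p-value reflects the scatter among these libraries, which may be technical.

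EGF receptors are cell-surface tyrosine kinases that pair up when a ligand binds, and their paired kinase domains start the RAS-ERK, PI3K-AKT and STAT pathways. Most ligands are made as membrane-bound precursors and are released by metalloproteases of the ADAM family. ERBB2 has no known ligand of its own and acts as a preferred partner, ERBB3 has a weak kinase and binds neuregulins, and EGFR binds EGF, TGF-alpha, amphiregulin, epiregulin, betacellulin and HB-EGF. Triple-negative breast cancers lack amplified ERBB2, and many carry high EGFR.

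The ligand genes AREG, EREG and BTC lie within 1 Mb on chromosome 4 and differed in how they varied over these libraries, so the 250 bases before the RefSeq start (GRCh38.p14) of each are shown. AREG (ENSG00000109321) occupies chr4:74445134-74455009 on the plus strand in GENCODE v29 (hg38). EREG (ENSG00000124882) lies at chr4:74365143-74388751 on the plus strand, and BTC (ENSG00000174808) at chr4:74744759-74794686 on the minus strand. The windows printed are chr4:74444886-74445135 (AREG), chr4:74364895-74365144 (EREG) and chr4:74794524-74794773 (BTC), each read along the strand of its gene. Capitals mark a cAMP response element (CRE, searched as TGACGTCA), an AP-1 site (TGANTCA) or a TATA box (TATAAA), each searched on both strands.
AREG: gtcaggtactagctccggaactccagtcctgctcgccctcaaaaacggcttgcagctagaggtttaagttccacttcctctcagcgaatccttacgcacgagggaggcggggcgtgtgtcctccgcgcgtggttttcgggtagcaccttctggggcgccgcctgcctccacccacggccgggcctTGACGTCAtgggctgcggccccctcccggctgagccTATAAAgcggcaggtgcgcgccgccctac
EREG: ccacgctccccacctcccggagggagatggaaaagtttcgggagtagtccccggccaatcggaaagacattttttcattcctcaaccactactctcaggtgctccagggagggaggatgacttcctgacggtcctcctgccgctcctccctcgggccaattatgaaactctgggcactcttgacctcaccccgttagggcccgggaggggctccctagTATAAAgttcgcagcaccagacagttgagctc
BTC: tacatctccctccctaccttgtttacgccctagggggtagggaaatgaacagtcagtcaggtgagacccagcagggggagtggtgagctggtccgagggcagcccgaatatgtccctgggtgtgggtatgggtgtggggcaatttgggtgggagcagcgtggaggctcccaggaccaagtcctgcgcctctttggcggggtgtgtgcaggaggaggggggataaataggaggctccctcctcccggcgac
The AREG window held a CRE at 65 to 58 bases and a TATA box at 29 to 24 bases before the start. The EREG window held a TATA box at 32 to 27 bases before the start and no CRE. The BTC window held none of the 3 marked motifs. Motifs named for TEAD (GGAATG) and HIF (ACGTG or GCGTG) and the GC box (GGGCGG) were also searched and are not marked. The HIF motif was found in the AREG, EREG and BTC windows, the TEAD motif in EREG and the GC box in AREG. Of 35116 promoter windows of this length, 1.65% held the CRE, 6.57% the AP-1 site and 10.7% the TATA box. The TEAD motif, GC box and HIF motif were in 11.9%, 42.6% and 43.2%. These matches are letters in a window and were not tested as binding sites. Windows were read for 7 of the 9 members.

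Library totals ran from 13507341 to 17078273 counts, and levels are given as CPM, the count of a gene scaled to library size with TMM factors (edgeR's trimmed mean method). Wild-type replicate 1 stood apart from the other wild-type libraries. Its chi-square per degree of freedom over genes was 139 and 131 against wild-type replicates 2 and 3, whereas every other pair within a group lay between 1.25 and 3.31. Mitochondrial genes took 2.08% of its counts, against 7.83% and 7.92% in replicates 2 and 3. Their share was 3.34% to 3.46% in mutation 1 and 6.39% to 9.02% in mutations 2 and 3. In 5 of the 9 members wild-type replicate 1 differed by over 0.5 log2 units from replicate 2, and likewise from replicate 3. Its MUC5AC level was 8.47 CPM, against 1014 and 1002 CPM in replicates 2 and 3 and at most 0.338 CPM in the mutant libraries. Whether its label is right was not tested. The members' results against wild type are therefore given with it and without it, as are the counts of the gene lists. DICER1 itself, whose counts can hold both the cell's own and plasmid transcripts, was at 27.4 CPM in wild-type replicate 1 and between 38.8 and 47.4 CPM in the other 11 libraries. No mutation differed from wild type in DICER1 by the test used throughout, edgeR's quasi-likelihood test with Benjamini-Hochberg adjustment over all genes, called at an adjusted p under 0.05 (adjusted p = 0.493, 0.406 and 0.916). With wild-type replicate 1 left out, DICER1 was lower by 0.23 log2 units in mutation 3 (adjusted p = 0.000372). Of the epithelial markers, KRT7, KRT8, KRT18 and KRT19 were above 209 CPM in every library, EPCAM ran from 4.59 to 33.3 CPM and CDH1 from 0.523 to 13.8 CPM. The mesenchymal marker VIM was at or above 723 CPM in every library. ESR1 and PGR stayed at or below 0.653 and 0.0741 CPM. Of 10 markers of blood, endothelial and stromal cells, CD3E and MS4A1 were at 0 in all libraries and PTPRC was at most 0.168 CPM. Others were detected: CD14 ran from 3.43 to 27.0 CPM, COL1A1 from 11.4 to 35.7 CPM and PECAM1 from 0.352 to 17.1 CPM. CD14 and COL1A1 were highest in mutation 1, and PECAM1 in wild type. The summed level of these 10 markers was 37.5 to 46.1 CPM in wild type. It was 59.6 to 64.2 CPM in mutation 1, with 19.8 to 26.3 CPM for mutation 2 and 30.9 to 33.7 CPM for mutation 3, and its part in the results was not tested. In such bulk RNA, fewer cells that express a gene and less RNA per cell cannot be told apart.

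Against wild type, 7 of the 9 members were called in mutation 1 (5 higher, 2 lower), 5 in mutation 2 (3 higher, 2 lower) and 7 in mutation 3 (4 higher, 3 lower). Of all genes, 69% were called in mutation 1 (32.5% higher, 36.5% lower), 37% in mutation 2 (16.9% higher, 20.1% lower) and 59.3% in mutation 3 (28.1% higher, 31.2% lower). A call was thus common among all genes as well. With total counts in place of TMM, 36.1% rather than 47.1% of the genes called in mutation 1 were higher. Between mutations, 7 members were called for mutation 1 against mutation 2 (65.4% of all genes), 6 for mutation 3 against mutation 2 (52.9%) and 3 for mutation 1 against mutation 3 (42.8%). An F test over the 4 groups called 8 of 9 members, against 83% of all genes, and the member not called was BTC (adjusted p = 0.282). The members' median log2 fold change against wild type was 0.46, 0.12 and -0.18 in mutations 1, 2 and 3, beside -0.04, -0.01 and -0.01 for all genes tested. In the fit lacking wild-type replicate 1, the members' medians were 0.74, 0.22 and 0.04. Without it, 8, 8 and 7 members were called against wild type, beside 82.7%, 67.9% and 77.1% of all genes. The 3 comparisons with wild type share the wild-type libraries and are not independent of each other.

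**Figure D1:**
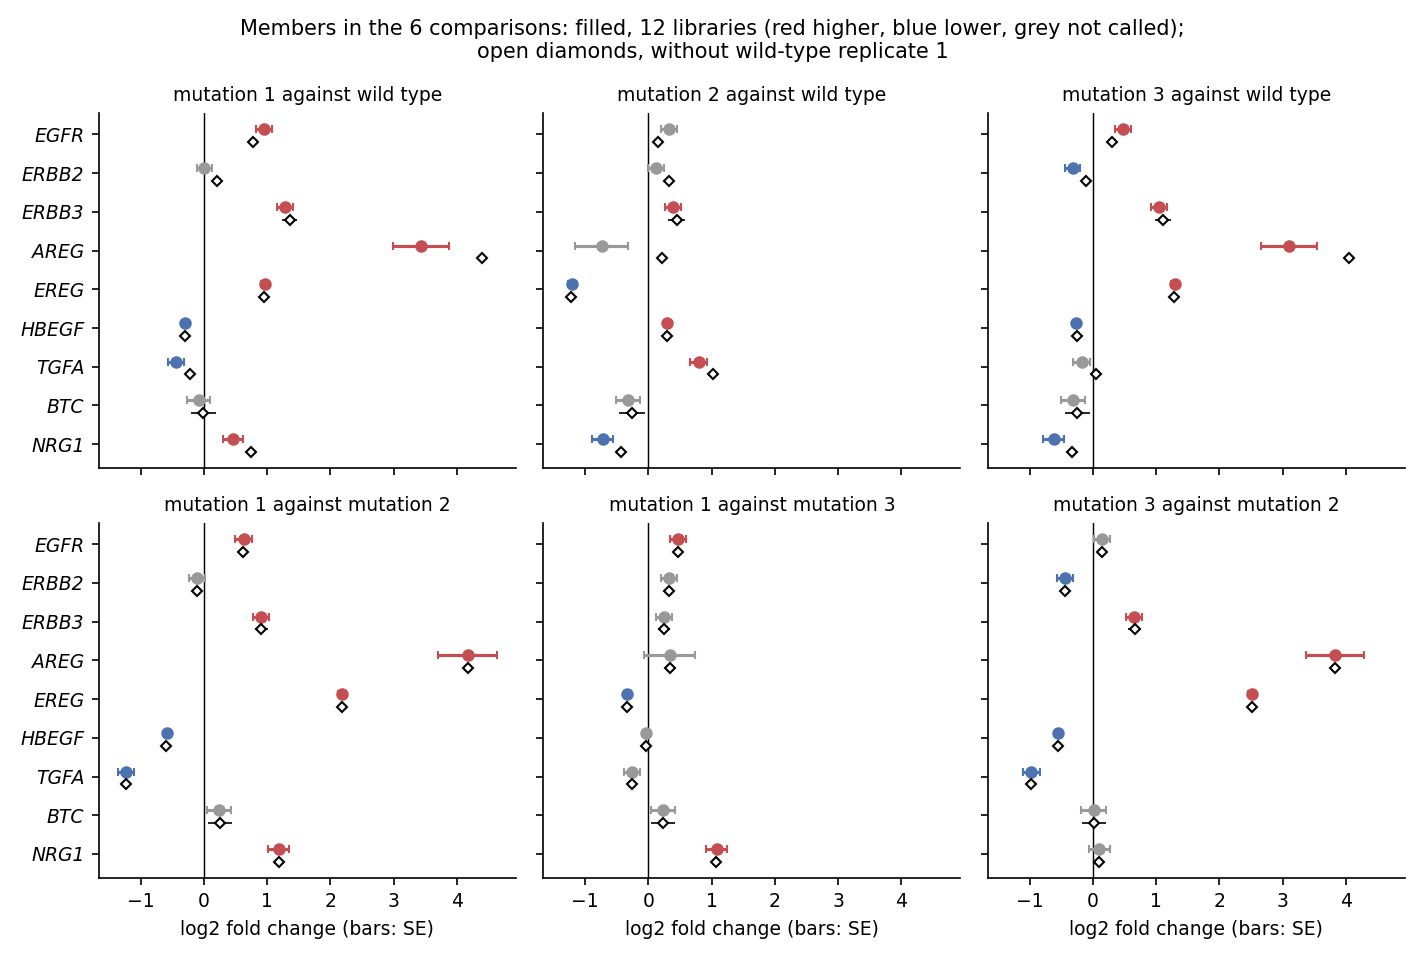
Log2 fold changes (x axes) of the 9 members (y axes) in the 6 comparisons, with bars for the standard error. Filled points are fits of all 12 libraries (red, called higher; blue, called lower; grey, not called) and open diamonds the fits without wild-type replicate 1. AREG lies at 3.44 and 3.10 for mutations 1 and 3 against wild type, and moves to 4.39 and 4.05 without that library.

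Among the receptors, EGFR and ERBB3 were higher in mutations 1 and 3 than in wild type, whereas ERBB2 was not called in mutation 1 or 2. EGFR (ENSG00000146648, chr7:55019021-55211628) read 157, 243 and 233 CPM in wild-type replicates 1, 2 and 3, and 407, 411 and 406 CPM in the mutation 1 libraries. It read 262, 261 and 269.6 CPM in mutation 2 and 291, 296 and 295 CPM in mutation 3. All mutant libraries lay above all wild-type libraries, and the groups ranked mutation 1, mutation 3, mutation 2, wild type. The increase was 1.93-fold in mutation 1 (log2 fold change 0.95, SE 0.13, edgeR adjusted p = 6.27e-05) and 1.39-fold in mutation 3 (0.48, SE 0.13, edgeR adjusted p = 0.00769). The call in mutation 3 was lost in a fit of only those 2 groups (0.47, edgeR adjusted p = 0.0571). In mutation 2 the difference of 0.33 was not called (SE 0.13, edgeR adjusted p = 0.0663), nor was that between mutations 3 and 2 (0.15, edgeR adjusted p = 0.341). Without wild-type replicate 1, the lowest EGFR library, mutations 1, 2 and 3 exceeded wild type by 0.78, 0.16 and 0.31 log2 units, and all 3 were called. Mutation 1 exceeded mutation 2 by 0.63 and mutation 3 by 0.47 log2 units (edgeR adjusted p = 0.00126 and 0.0117).

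ERBB3 (ENSG00000065361, chr12:56076799-56103505) was the least abundant receptor, with 95 to 266 counts per library. It read 7.09, 6.31 and 6.15 CPM in wild type and 15, 17.9 and 14.7 CPM in mutation 1. In mutation 3 it read 14.5, 12.5 and 13.1 CPM, and in mutation 2 9.78, 7.98 and 7.78 CPM. Mutations 1 and 3 stood above wild type and mutation 2 without overlap. The rise over wild type was 2.43-fold in mutation 1 (log2 1.28, SE 0.13, edgeR adjusted p = 6.07e-06) and 2.06-fold in mutation 3 (1.04, SE 0.13, edgeR adjusted p = 4.83e-05). The smaller rise in mutation 2 (0.38, SE 0.13, edgeR adjusted p = 0.0373) was lost in 11 of 18 alternative analyses, with an adjusted p of up to 0.143. With wild-type replicate 1 left out, mutations 1, 2 and 3 exceeded wild type by 1.35, 0.45 and 1.11 log2 units, all called. The difference between mutations 1 and 3 was not called (0.24, SE 0.12, edgeR adjusted p = 0.138), although their libraries did not overlap. It was called without wild-type replicate 1 and in a fit of only those 2 groups (edgeR adjusted p = 0.0178 and 0.0183).

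ERBB2 (ENSG00000141736, chr17:39687914-39730426) read 112 CPM in wild-type replicate 1 and 76.1 and 78.0 CPM in replicates 2 and 3. It read 92.3, 84.3 and 90.3 CPM in mutation 1, 92.7, 98.0 and 97.9 CPM in mutation 2, and 72.9, 71.4 and 68.4 CPM in mutation 3. The mutation 3 libraries were the lowest of all 12. ERBB2 was lower in mutation 3 than in wild type (log2 -0.32, SE 0.12, edgeR adjusted p = 0.0435), a call lost in 12 of 18 alternatives, with an adjusted p of up to 0.159. In the fit lacking wild-type replicate 1, the highest ERBB2 library, that difference was -0.11 (edgeR adjusted p = 0.0278). It was also lower in mutation 3 than in mutation 2 (-0.44, SE 0.12, edgeR adjusted p = 0.0115), a call lost when mutation 3 replicate 3 was left out (edgeR adjusted p = 0.06). Mutations 1 and 2 differed from wild type by 0.01 and 0.12 and were not called, and without wild-type replicate 1 both were called higher (0.21 and 0.33). ERBB2 overlaps PGAP3 and MIEN1 on the other strand, which held up to 302 and 483 counts. Since counting ignored strand, reads from the shared stretches cannot be told apart.

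**Figure D2:**
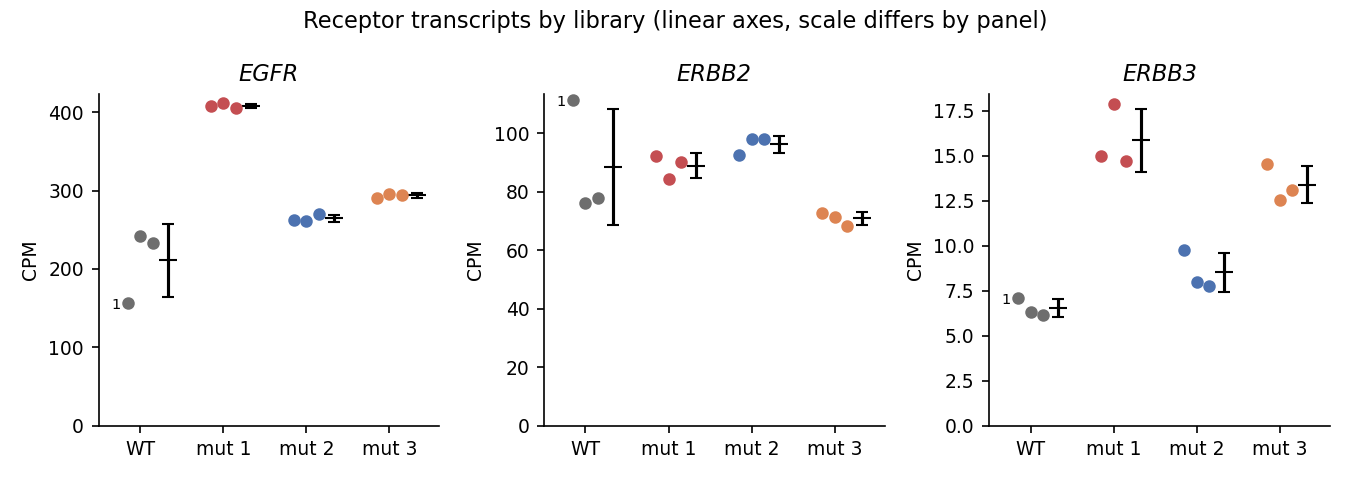
Receptor transcripts in CPM (y axes, linear, from 0) in each library of the 4 groups. Points are libraries, "1" marks wild-type replicate 1, and black dashes with bars are means with SD of 3 libraries. EGFR sits between 406 and 411 CPM in mutation 1, above every other library.

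Amphiregulin (AREG) and epiregulin (EREG), both EGFR ligands, were higher in mutations 1 and 3 than in wild type and mutation 2. Of the 9 members, AREG had the largest log2 fold change in mutations 1 and 3 against wild type. AREG read 109, 28.0 and 29.2 CPM in wild-type replicates 1, 2 and 3. It read 592, 589 and 609 CPM in mutation 1, 35.4, 33.7 and 30.5 CPM in mutation 2, and 468, 473 and 476 CPM in mutation 3. The 6 libraries of mutations 1 and 3 lay far above all others, and wild-type replicate 1 was the highest of the remaining 6. AREG rose 10.8-fold in mutation 1 (log2 3.44, SE 0.45, edgeR adjusted p = 4.97e-05) and 8.56-fold in mutation 3 (3.10, SE 0.44, edgeR adjusted p = 0.000142). Against wild-type replicates 2 and 3 alone, the same ratios were 21.0 and 16.6. Its increases ranked 251st (mutation 1) and 115th (mutation 3) of the 15094 genes tested against wild type, and 55th for mutation 3 against mutation 2. Mutation 1 exceeded mutation 2 by 18-fold (4.17, SE 0.46, edgeR adjusted p = 1.51e-05), and mutation 3 exceeded it by 14.2-fold (3.83, SE 0.46, edgeR adjusted p = 4.56e-05).

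Mutation 2 and wild type overlapped in AREG (log2 -0.73, SE 0.42, edgeR adjusted p = 0.194), and the sign turned without wild-type replicate 1 (0.22, edgeR adjusted p = 0.00112). Mutations 1 and 3 did not overlap in AREG, yet their difference of 0.34 was not called (SE 0.40, edgeR adjusted p = 0.533). The spread estimate, which all 12 libraries share, includes the scatter of the wild-type group. Without wild-type replicate 1 that difference was called, at 0.34 with an SE of 0.03 (edgeR adjusted p = 9.17e-23).

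EREG was steady within groups, wild type included. It read 43.3, 46.4 and 44.1 CPM in wild type and 86.7, 93.0 and 81.6 CPM in mutation 1. It read 19.6, 19.3 and 19.0 CPM in mutation 2 and 111, 108 and 110.4 CPM in mutation 3. No 2 groups overlapped, and the order was mutation 3, mutation 1, wild type, mutation 2. EREG rose 1.95-fold in mutation 1 (log2 0.97, SE 0.06, edgeR adjusted p = 1.41e-07) and 2.46-fold in mutation 3 (1.30, SE 0.06, edgeR adjusted p = 4.53e-08). It fell in mutation 2 to 0.432 of the wild-type level (-1.21, SE 0.06, edgeR adjusted p = 8.46e-07). Every pair of groups differed in EREG, including mutation 1 and mutation 3 (-0.33, SE 0.06, edgeR adjusted p = 0.000877), and all of these calls held in all 18 alternatives. With wild-type replicate 1 left out, mutations 1, 2 and 3 differed from wild type by 0.95, -1.23 and 1.28.

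HB-EGF and TGF-alpha, EGFR ligands released from the membrane by proteolysis, were both highest in mutation 2. HBEGF (ENSG00000113070, chr5:140332843-140346631) read 115, 117 and 113 CPM in wild type, 90.5, 93.7 and 95.2 CPM in mutation 1, 139, 144 and 138 CPM in mutation 2, and 94.5, 95.1 and 98.0 CPM in mutation 3. It was higher in mutation 2 (log2 0.29, SE 0.05, edgeR adjusted p = 0.000906), and lower in mutation 1 (-0.30, SE 0.05, edgeR adjusted p = 0.00021) and mutation 3 (-0.26, SE 0.05, edgeR adjusted p = 0.0008). In the fit lacking wild-type replicate 1, the differences in mutations 2, 1 and 3 were 0.30, -0.30 and -0.25. Mutations 1 and 3 overlapped and were not told apart (-0.04, SE 0.05, edgeR adjusted p = 0.516). These changes were small beside those of AREG, with no group more than 1.51-fold from another.

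TGFA (ENSG00000163235, chr2:70447280-70554193) read 144, 98.6 and 95.4 CPM in wild-type replicates 1, 2 and 3 and 80.9, 85.7 and 83.2 CPM in mutation 1. It read 199, 191 and 196 CPM in mutation 2 and 98.5, 100.1 and 101 CPM in mutation 3. The mutation 2 libraries were the highest of all, and wild-type replicate 1 stood between them and the rest. The rise in mutation 2 was 1.73-fold (log2 0.79, SE 0.13, edgeR adjusted p = 0.00089) and 2.02-fold without that library. TGFA was lower in mutation 1 (-0.44, SE 0.13, edgeR adjusted p = 0.0107), by -0.22 without wild-type replicate 1. That call was lost without mutation 1 replicate 1 (edgeR adjusted p = 0.0585) and in a fit of only these 2 groups (edgeR adjusted p = 0.0741). Mutation 3 was not told apart from wild type (-0.18, SE 0.13, edgeR adjusted p = 0.253), and the sign turned to 0.04 without wild-type replicate 1. Between mutations, TGFA was lower in mutations 1 and 3 than in mutation 2 (-1.23 and -0.97, edgeR adjusted p = 9.79e-06 and 9.65e-05). Both calls held in all 18 alternatives. Mutations 1 and 3 did not overlap, but their difference was not called (-0.26, edgeR adjusted p = 0.129).

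Neuregulin 1, a ligand of ERBB3 and ERBB4, was highest in mutation 1 and low in mutations 2 and 3. NRG1 (ENSG00000157168) read 59.1, 34.6 and 37.8 CPM in wild-type replicates 1, 2 and 3 and 56.8, 60.2 and 63.9 CPM in mutation 1. It read 25.7, 27.5 and 26.5 CPM in mutation 2 and 29, 28.4 and 28.2 CPM in mutation 3. Wild-type replicate 1 lay inside the range of mutation 1, and both other mutations lay below every wild-type library. NRG1 fell in mutation 2 (log2 -0.72, SE 0.16, edgeR adjusted p = 0.00571) and in mutation 3 (-0.62, SE 0.16, edgeR adjusted p = 0.00709), by -0.44 and -0.33 without wild-type replicate 1. Both calls were lost in fits of only the 2 groups compared (edgeR adjusted p = 0.0816 and 0.0602). The rise in mutation 1 (0.46, SE 0.16, edgeR adjusted p = 0.0242) was 0.74 without wild-type replicate 1. It was lost in 8 of 18 alternatives, among them those without wild-type replicate 2 or 3 or any 1 mutation 1 library, with an adjusted p of up to 0.217. Between mutations, mutation 1 exceeded mutation 2 by 2.27-fold and mutation 3 by 2.11-fold (edgeR adjusted p = 7.8e-05 and 0.000371). Mutations 2 and 3 differed by 0.10 and were not told apart (edgeR adjusted p = 0.619).

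Betacellulin, an EGFR and ERBB4 ligand, was the rarest member. BTC read 4.0, 3.52 and 3.49 CPM in wild type, 3.80, 3.69 and 2.87 CPM in mutation 1, 3.59, 2.27 and 2.93 CPM in mutation 2, and 2.75, 3.14 and 2.96 CPM in mutation 3. These are 35 to 63 counts per library, and no comparison was called (SE 0.19 in each). The largest log2 difference from wild type was -0.33, in mutation 2 (edgeR adjusted p = 0.199). It was -0.26 when wild-type replicate 1 was left out, and still not called (edgeR adjusted p = 0.251).

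**Figure D3:**
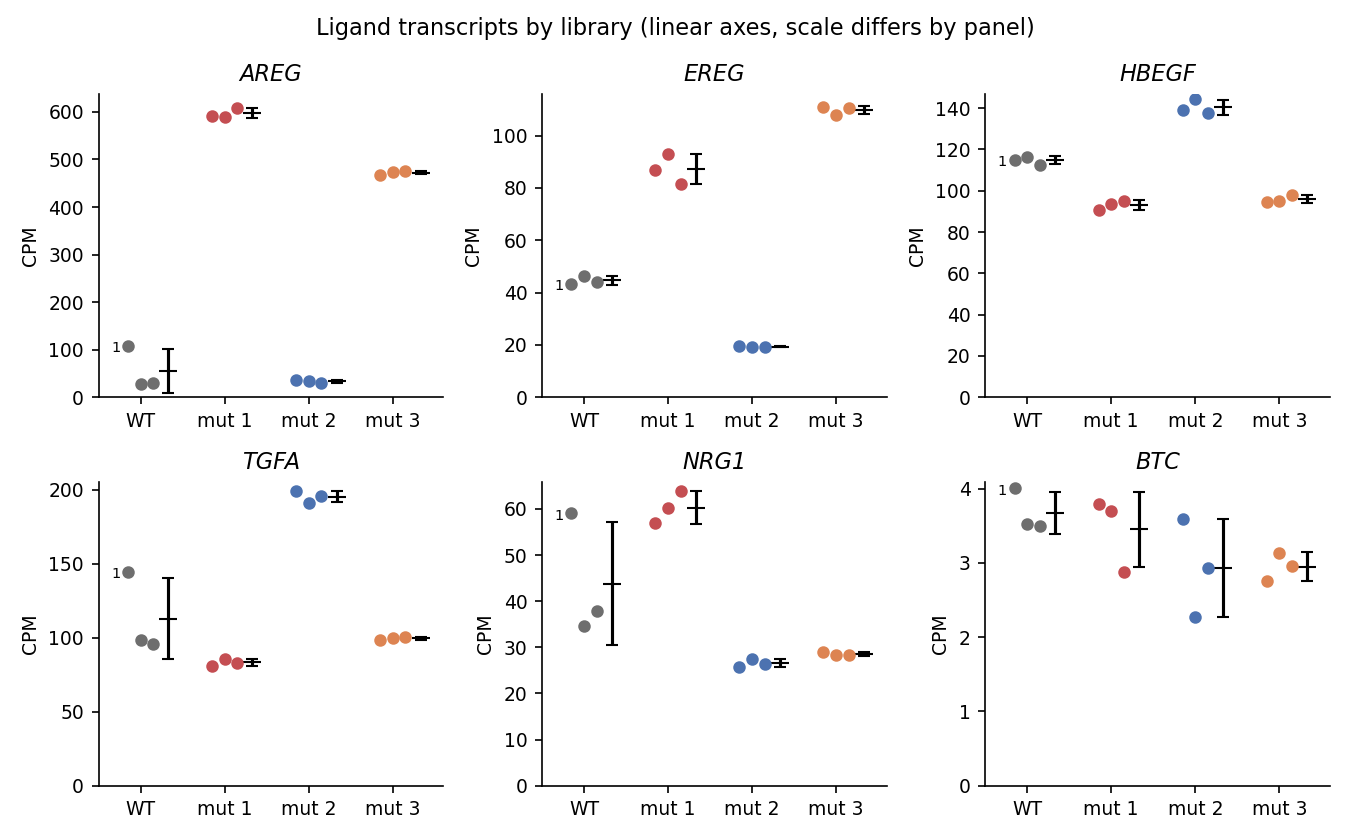
Ligand transcripts in CPM (y axes, linear, from 0) in each library of the 4 groups. Points are libraries, "1" marks wild-type replicate 1, and black dashes with bars are means with SD of 3 libraries. AREG and EREG are high in mutations 1 and 3, HBEGF and TGFA in mutation 2, and NRG1 in mutation 1.

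Levels of different genes were compared per exon length, as CPM per kilobase of exon (RPKM). Among ligands, HBEGF led in wild-type replicates 2 and 3, with 43.9% and 43.1% of the summed RPKM of the 6 ligands, and AREG made up 19.3% and 20.5%. In wild-type replicate 1 AREG led with 44.8%. AREG made up 83.4% to 84.2% in mutation 1 and 79.2% to 79.5% in mutation 3. In mutation 2 HBEGF (40.2% to 42.2%) and TGFA (34.0% to 35.8%) led, and AREG made up 16.8% to 18.7%. The summed ligand RPKM was 147, 87.9 and 86.5 in wild-type replicates 1, 2 and 3. It was 432 ± 6.16 in mutation 1, 113 ± 2.27 in mutation 2 and 361 ± 3.02 in mutation 3 (SD, n = 3). AREG alone stood at 362 ± 6.31 RPKM in mutation 1 and 20.1 ± 1.52 RPKM in mutation 2 (SD, n = 3). EREG, although changed in the same directions as AREG in mutations 1 and 3, made up no more than 9.24% in any library.

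The receptors kept 1 order on this scale, EGFR above ERBB2 above ERBB3, in all 12 libraries. EGFR made up 51.9% of the summed receptor RPKM in wild-type replicate 1 and 69.3% to 70.6% in the other wild-type libraries. It made up 75.9% ± 0.502 in mutation 1, 67.3% ± 0.431 in mutation 2 and 73.8% ± 0.853 in mutation 3 (SD, n = 3). ERBB3 made up no more than 5.04% in any library. The summed receptor RPKM was 26.1 ± 1.78 in wild type, 43.0 ± 0.172 in mutation 1, 31.4 ± 0.443 in mutation 2 and 31.8 ± 0.163 in mutation 3 (SD, n = 3).

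**Figure D4:**
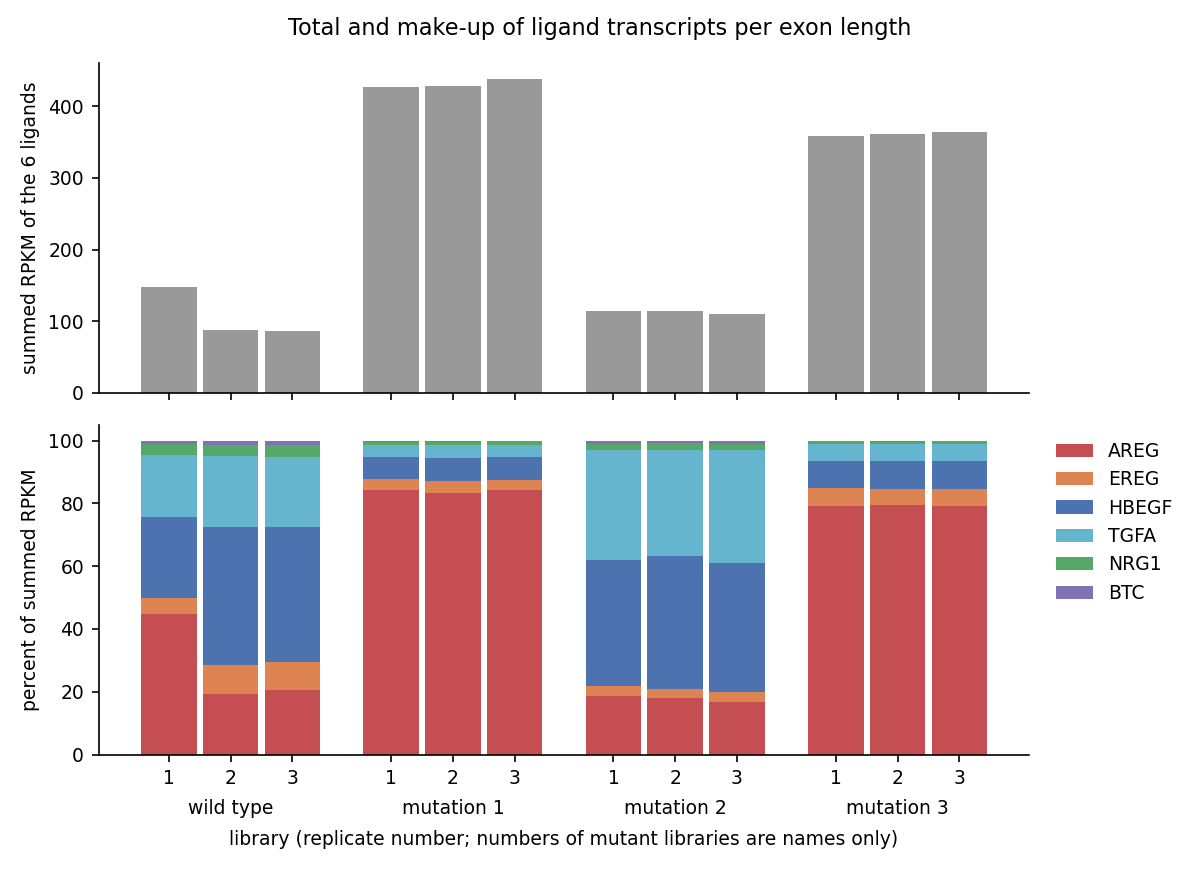
Summed RPKM of the 6 ligand genes (upper axis) and the percent of it that each ligand makes up (lower axis), 1 bar per library. AREG fills 79.2% to 84.2% of the bars of mutations 1 and 3 and at most 18.7% of those of mutation 2.

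On chromosome 4, AREG and EREG are 56.4 kb apart. Within 1 Mb of AREG the annotation holds 18 protein-coding genes, of which 9 passed the filter. Apart from AREG, EREG and BTC these were CXCL8, CXCL1, CXCL3, CXCL2, MTHFD2L and PARM1, named after their values were seen. The neutrophil chemokine gene CXCL1 was lower in mutations 1 and 3, with log2 fold changes of -2.49 and -2.63 (edgeR adjusted p = 7.89e-05 and 8.13e-05). CXCL3, another chemokine gene, was lower as well, at -1.82 and -2.89. Without wild-type replicate 1 these were -1.83 and -1.96 for CXCL1 and -1.64 and -2.71 for CXCL3. CXCL2 and PARM1 were higher in mutation 1 (0.79 and 1.50, edgeR adjusted p = 0.00509 and 0.000619). Both were lower in mutation 3 (-0.74 and -0.79, edgeR adjusted p = 0.011 and 0.0384). CXCL8 was called in neither mutation (0.63 and -0.49, edgeR adjusted p = 0.176 and 0.308). Leaving out wild-type replicate 1, CXCL8 was called higher in mutations 1 and 3 (1.51 and 0.40). Of the 6 neighbours outside the family, 2 were called higher and 2 lower in mutation 1, and 0 higher and 4 lower in mutation 3, beside 69% and 59.3% of all genes called in either direction. With wild-type replicate 1 left out, the counts were 3 and 2 in mutation 1, and 1 and 4 in mutation 3. All genes called were then 82.7% and 77.1%. MTHFD2L, the closest of them to EREG, was not called in any comparison with wild type or mutation 2. EPGN, the epigen gene between MTHFD2L and EREG, held at most 3 counts in a library.

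Of the 6 other family genes, EGF and NRG2 passed the filter. EGF read 5.42 to 6.50 CPM in wild type, and rose to 7.71 CPM in mutation 1, 9.57 CPM in mutation 2 and 8.41 CPM in mutation 3 (edgeR adjusted p = 0.0201, 0.00184 and 0.00567). The call in mutation 1 was lost in 6 of 18 alternatives, among them those without wild-type replicate 2 or 3, with an adjusted p of up to 0.263. The log2 fold changes of EGF were 0.39, 0.70 and 0.51, and 0.48, 0.79 and 0.60 without wild-type replicate 1. NRG2, a neuregulin, stayed below 3.22 CPM throughout, with 10 to 16 counts per library in wild type and only 2 to 3 in mutation 1. NRG2 was lower in mutation 1 (0.167 against 0.806 CPM, edgeR adjusted p = 0.000753) and higher in mutation 2 (2.91 CPM, edgeR adjusted p = 0.000651), at log2 fold changes of -2.21 and 1.85. In the fit lacking wild-type replicate 1, these were -2.31 and 1.75, and NRG2 was then also called lower in mutation 3 (-0.95, edgeR adjusted p = 0.0463). ERBB4, EPGN, NRG3 and NRG4 were not tested for lack of counts, and NRG3 had 0 counts in every library.

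The machinery around the receptors was read from 5 gene lists, described here by counts and medians. Counts from all 12 libraries are to be read beside the 69%, 37% and 59.3% of all genes called in mutations 1, 2 and 3. Those without wild-type replicate 1 stand beside 82.7%, 67.9% and 77.1% of all genes. Those from fits of only the 2 groups stand beside 2589 of 14002 genes in mutation 2 and 6600 of 14168 in mutation 3. Of the 14 ligand sheddases and their partners, 8 were called higher and 3 lower in mutation 1, 3 and 3 in mutation 2, and 6 and 4 in mutation 3. Their median log2 fold changes were 0.59, 0.12 and 0.31. Without wild-type replicate 1, 9 were higher and 5 lower in mutation 1, 8 and 6 in mutation 2, and 9 and 5 in mutation 3, with medians of 0.70, 0.16 and 0.36. In a fit of only the 2 groups, 2 were called in mutation 2, both lower. RHBDF2, which carries the sheddase ADAM17 to the surface, read 65.4 to 72.2 CPM in wild type and rose to 156 ± 6.70 CPM in mutation 1 and 221 ± 8.81 CPM in mutation 3 (SD, n = 3). FRMD8, a partner in the same list, was lower in mutations 1 and 3 (log2 -1.02 and -0.87, edgeR adjusted p = 1.07e-05 and 5.31e-05). Without wild-type replicate 1 FRMD8 differed by -0.87, 0.35 and -0.72 in mutations 1, 2 and 3. RHBDF1 was called lower in mutations 1, 2 and 3 in that fit (-0.65, -0.90 and -0.67), and in none of them with all 12 libraries. ADAM17, the main sheddase of AREG, EREG and TGFA precursors, read 39.1, 25.2 and 25.1 CPM in wild type. It rose to 45.7 ± 1.38 CPM in mutation 1, 44.5 ± 2.67 CPM in mutation 2 and 54.6 ± 3.32 CPM in mutation 3 (SD, n = 3; edgeR adjusted p = 0.0033, 0.0108 and 0.00046). For ADAM17 the log2 values of 0.62, 0.58 and 0.87 moved to 0.87, 0.83 and 1.12 when wild-type replicate 1 was left out, and the call in mutation 2 was lost in a fit of only the 2 groups (edgeR adjusted p = 0.0986). ADAM12, a sheddase linked to HB-EGF, read 1.12 CPM in wild-type replicate 1, 9.05 and 8.99 CPM in the other wild-type libraries, and 0.24, 0.704 and 0.128 CPM on average in mutations 1, 2 and 3. TIMP3, an inhibitor of ADAM17, rose in mutation 1 from 21.6, 43.9 and 41.5 CPM to 98.9 ± 0.912 CPM (edgeR adjusted p = 0.000111), and in mutation 3 to 63.6 ± 0.832 CPM (SD, n = 3; edgeR adjusted p = 0.00591). In mutation 2 its log2 difference of -0.57 was not called (edgeR adjusted p = 0.0608), and at -0.81 it was called without wild-type replicate 1.

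Receptor inhibitors and degradation factors were 8 higher and 6 lower of 19 tested in mutation 1, 4 and 7 in mutation 2, and 9 and 5 in mutation 3, with medians of 0.42, 0.03 and 0.40. With wild-type replicate 1 left out, 10 were higher and 6 lower in mutation 1, 8 and 8 in mutation 2, and 12 and 6 in mutation 3, and the median in mutation 1 was 0.20. In a fit of only the 2 groups, 7 were called in mutation 2, beside 2589 of all genes. ERRFI1, a cytosolic inhibitor of EGFR, rose from 332 to 365 CPM in wild type to 858 ± 15.2 CPM in mutation 1 and 992 ± 5.34 CPM in mutation 3 (SD, n = 3; edgeR adjusted p = 9.08e-09 and 1.17e-08). In mutation 2 it fell by 0.53 log2 units (edgeR adjusted p = 4.68e-05). LRIG1, a membrane protein that lowers receptor levels, read 91.3, 3.58 and 3.69 CPM in wild-type replicates 1, 2 and 3 and 206 ± 5.99 CPM in mutation 1 (SD, n = 3). Its log2 fold change in mutation 1 was 2.65 with all libraries and 5.83 without wild-type replicate 1. The call in mutation 1 was lost in 5 of the 17 alternatives that gave an adjusted p, among them each that left out 1 mutation 1 library. LRIG1 averaged 103 CPM in mutation 2 and 122 CPM in mutation 3. Neither difference from wild type was called with all 12 libraries. Without wild-type replicate 1 the log2 fold changes of LRIG1 in mutations 2 and 3 were 4.83 and 5.08, both called. CBLB, a ubiquitin ligase, rose from 8.49 to 13.5 CPM in wild type to 26.7 CPM in mutation 1 and 31.8 CPM in mutation 3. In mutation 2 it was at 10.6 CPM, not called (edgeR adjusted p = 0.898). Without wild-type replicate 1 it was called higher there (log2 0.27, edgeR adjusted p = 0.0278). SOCS3, an inhibitor of cytokine receptor signalling, fell by 3.66 log2 units in mutation 1 by 1.96 in mutation 2 and by 0.87 in mutation 3 (edgeR adjusted p = 5.12e-06, 0.000893 and 0.0296). The call in mutation 3 was lost in 7 of 18 alternatives, with an adjusted p of up to 0.115.

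Adaptors and effectors were called in both directions: 11 higher and 8 lower of 25 tested in mutation 1, 9 and 4 in mutation 2, and 9 and 8 in mutation 3, with medians of 0.22, 0.05 and -0.02. In the fit lacking wild-type replicate 1, 15 were higher and 10 lower in mutation 1, 13 and 9 in mutation 2, and 11 and 11 in mutation 3, with medians of 0.20, 0.08 and 0.04. In a fit of only the 2 groups, 4 were called in mutation 2, all higher. BRAF, a kinase of the ERK cascade, rose from 18.7 to 21.3 CPM in wild type to 73.4 ± 0.377 CPM in mutation 1, 28.8 ± 1.77 CPM in mutation 2 and 47.1 ± 1.39 CPM in mutation 3 (SD, n = 3; edgeR adjusted p = 4.79e-09, 0.00019 and 1.61e-07). PIK3R1, the regulatory subunit of PI3-kinase, read 7.02, 16.2 and 16.6 CPM in wild type and fell to 1.88 CPM in mutation 1 and 4.15 CPM in mutation 3, at log2 fold changes of -2.80 and -1.68. In mutation 2 it was at 13.4 CPM, not called (log2 0.01, edgeR adjusted p = 0.989). Without wild-type replicate 1 the log2 fold changes were -3.08, -0.29 and -1.97 in mutations 1, 2 and 3, all called.

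ERK feedback genes are induced by ERK signalling and damp it. Whether each of the 12 genes listed as such (SPRY, SPRED and DUSP genes) does so was not tested here. Of these 12 genes, 3 were higher and 4 lower in mutation 1, 0 and 6 in mutation 2, and 1 and 4 in mutation 3. Their medians were -0.39, -0.65 and -0.15, and -0.80, -1.04 and -0.37 without wild-type replicate 1. Without that library, 4 were higher and 8 lower in mutation 1, 2 and 10 in mutation 2, and 2 and 9 in mutation 3. In fits of only the 2 groups, 1 was called in mutation 2 and 2 in mutation 3, beside 2589 and 6600 of all genes. Single genes moved in opposite directions in mutation 1. The phosphatase gene DUSP1 rose from 11.6 to 15 CPM in wild type to 253 ± 4.47 CPM (SD, n = 3; edgeR adjusted p = 6.3e-10). Its log2 fold changes in mutations 2 and 3 were -0.45 and 0.84 (edgeR adjusted p = 0.00552 and 3.35e-05). DUSP6, the ERK phosphatase, read 51.1, 204 and 200 CPM in wild type and fell to 19.5 ± 0.741 CPM (SD, n = 3; edgeR adjusted p = 7.59e-05). DUSP6 was also lower in mutations 2 and 3 (log2 -1.50 and -1.35, edgeR adjusted p = 0.0106 and 0.0101), calls lost in fits of only the 2 groups (edgeR adjusted p = 0.0912 and 0.0657). SPRY1, a Sprouty inhibitor, read 18.1, 92.3 and 88.9 CPM in wild type and was lower in all 3 mutations, at 31.3, 12.9 and 23.9 CPM (edgeR adjusted p = 0.0442, 0.00248 and 0.0138). Wild-type replicate 1 lay within the range of these group means. The call in mutation 1 was lost in 13 of 18 alternatives and that in mutation 3 in 3, with adjusted p-values of up to 0.161 and 0.0781.

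Growth factor response genes were 7 higher and 3 lower of 15 tested in mutation 1, 2 and 3 in mutation 2, and 6 and 3 in mutation 3, with medians of 0.23, -0.17 and 0.35. With wild-type replicate 1 left out, the medians were 0.06, -0.26 and 0.20, and of the same 15, 7 were higher and 5 lower in mutation 1, 3 and 9 in mutation 2, and 7 and 4 in mutation 3. In a fit of only the 2 groups, 3 were called in mutation 2. The AP-1 subunit gene FOS read 0.919 to 2.57 CPM in wild type and rose to 16.5 CPM in mutation 1. In mutations 2 and 3 its log2 differences of -0.51 and 0.63 were not called (edgeR adjusted p = 0.23 and 0.0885). Without wild-type replicate 1 FOS was called lower in mutation 2 (-0.80, edgeR adjusted p = 0.0074). In mutation 3 it was then at 0.34, not called (edgeR adjusted p = 0.186). MYC read 124 to 129 CPM in wild type and averaged 396 CPM in mutation 1, 204 CPM in mutation 2 and 238 CPM in mutation 3. The mutation 1 average was the highest of these. The rises in mutations 2 and 3 were called (edgeR adjusted p = 6.31e-06 and 1.46e-07). With wild-type replicate 1 left out, MYC was called higher in mutations 1, 2 and 3 (log2 1.65, 0.69 and 0.92). ATF3 read 4.08 to 8.73 CPM in wild type. It averaged 27.2 CPM in mutation 1 and 12.2 CPM in mutation 3, both called higher (edgeR adjusted p = 8.03e-06 and 0.00255). JUN fell from 185 to 219 CPM in wild type to 72.6 CPM in mutation 1 and 122 CPM in mutation 3, and rose to 251 CPM in mutation 2 (edgeR adjusted p = 2.98e-08, 1.05e-05 and 0.00299). CCND1, the cyclin D1 gene, read 419, 720 and 729 CPM in wild type and fell to 272 CPM in mutation 1 and 225 CPM in mutation 3, with 724 CPM in mutation 2, not called (edgeR adjusted p = 0.319).

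**Figure D5:**
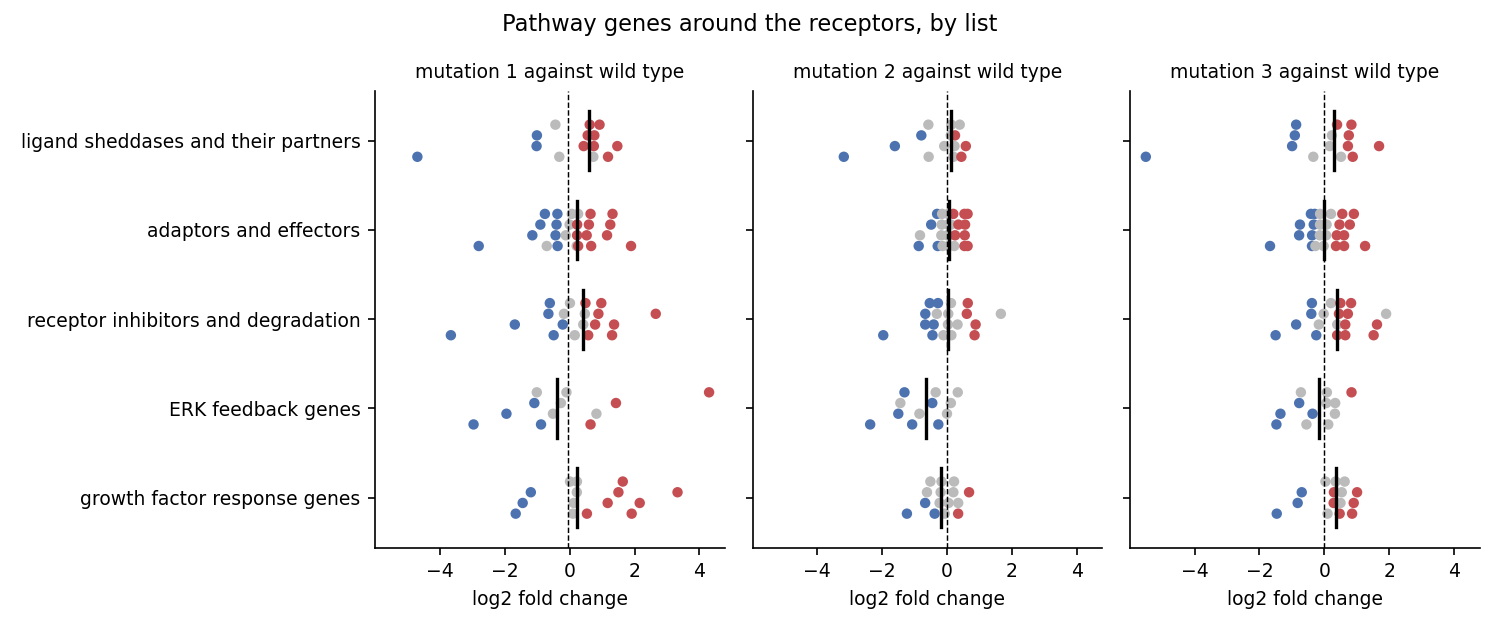
Log2 fold changes against wild type (x axes) of the tested genes of 5 lists (y axes), 1 panel per mutation. Points are genes (red, called higher; blue, called lower; grey, not called), thick bars list medians, and dashed lines the median of all genes tested. The ERK feedback genes lie lowest in mutation 2, with a median of -0.65.

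For members with at least 5 CPM on average, the genes with the most similar profile were found among 10430 genes by the root mean square (RMS) difference of log2 CPM over the 12 libraries, each centred on its own mean. AREG was nearest to the clock-related transcription factor genes DBP (RMS 0.39) and BHLHE40 (0.45), beside a median RMS of 1.98 over all genes compared. DBP averaged 8.27 CPM in wild type, 118 in mutation 1, 6.01 in mutation 2 and 49.8 in mutation 3. EREG was nearest to ERRFI1 (0.25) and AMT (0.26), beside a median of 1.04. ERRFI1 averaged 346 CPM in wild type, 858 in mutation 1, 239.5 in mutation 2 and 992 in mutation 3, the order of EREG. EGFR was nearest to USP36 (0.06), ERBB3 to PARP16 (0.11), ERBB2 to CYC1 (0.07), TGFA to ZNF618 (0.07) and NRG1 to VSTM2L (0.15). The second nearest were ZNF609 for EGFR, SPTY2D1 for ERBB3, TPRKB for ERBB2, GCLM for TGFA and SREBF1 for NRG1. The libraries share depth and group structure, so such likeness is a description only.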

How the data were processed

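Poly(A)-selected RNA of 12 MDA-MB-231 libraries was analysed from raw counts of read pairs per gene that the authors deposited. Per the file headers, the counts came from featureCounts 2.0.6, over exons by gene ID, without strand and with a minimum mapping quality of 10, on hg38. Read trimming with cutadapt 1.9.1, quality control with FastQC 0.11.8 and alignment with STAR appear in the submitters' processing notes, as do SAMtools and DESeq2. Counts without strand cannot separate overlapping genes.

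Groups came from the labels. Replicate numbers of mutant libraries follow the order of the samples and are names only. The 4 groups were compared in 6 pairs with edgeR 4.0.16 (R 4.3.3), quasi-likelihood and robust, with TMM scaling, all 12 libraries in 1 fit with 8 residual degrees of freedom. Low genes were removed with filterByExpr at a minimum count of 10 and a minimum total of 15, leaving 15094 genes. Benjamini-Hochberg adjustment ran over all of them, tests were two-sided, and the call was at an adjusted p under 0.05. The SE was taken as the size of the log2 fold change over the root of F. The fit was also run on simulated counts with the same dispersion for every gene and no outlying library. That run therefore does not speak to the effect of wild-type replicate 1. RPKM is CPM per kilobase of GENCODE v29 exons. Library totals of 13507341 to 17078273 counts gave 35 to 8780 counts per member and library.

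The members and the gene lists were chosen with earlier results of these data known. Named list genes are up to 2 called genes with the largest rise and up to 2 with the largest fall per list and mutation, at 5 CPM or more in the higher group and without overlap of libraries. The text gives a selection of them. RHBDF1 and NRG2 are named outside this rule. The genes with a profile most like HBEGF are not reported here. Alternatives were other scalings (RLE, total counts), DESeq2 1.42.0, other filters, only the 2 groups compared, a 2-fold limit and leaving out each library. Motifs were searched in RefSeq promoter windows. MicroRNAs were not analysed here.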

Additional observations from a re-analysis of the deposited data

How the results depend on the processing

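Each of the 54 member values (9 members, 6 comparisons) was recomputed in 18 ways. Of 35 called values, 27 were called in the same direction in all 18, 8 lost the call in at least 1, and 0 turned sign. Of the 972 recomputed values, 896 kept direction and call, 37 lost the call, 24 gained it and 15 turned sign. EGFR in mutation 2 against wild type, not called, was called with DESeq2 (adjusted p = 0.0433), and ERBB2 in mutation 3 against wild type was lost with RLE scaling (edgeR adjusted p = 0.0509). The cause was not tested. No paired analysis was possible because the labels give the mutant libraries no replicate numbers.

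With a 2-fold limit added, the members called for mutations 1, 2 and 3 against wild type were 2, 1 and 3, and for mutation 1 against 2, 1 against 3 and 3 against 2 they were 4, 1 and 2. All genes called were then 5302, 1433, 3630, 4930, 2111 and 2838. With only the 2 groups compared, 3 members (2589 genes) were called for mutation 2 against wild type, 4 members (6600 genes) for mutation 3 against wild type and 7 members (10073 genes) for mutation 1 against mutation 3. Leaving out 1 library gave 4 to 8 members (4208 to 10726 genes) for mutation 2 against wild type, and 3 to 7 members (5146 to 10521 genes) for mutation 1 against mutation 3. In both, the highest was without wild-type replicate 1.

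The signs that turned belonged to values that were not called. With total counts in place of TMM, ERBB2 was at -0.21 in mutation 1 against wild type, and in mutation 3 against mutation 2 BTC was at -0.10 and NRG1 at -0.014. Total counts moved the median of all genes by -0.21 in mutation 1 and -0.12 in mutation 3 against wild type. They also moved the share of calls that were higher from 47.1% to 36.1% in mutation 1 against wild type, and from 48.6% to 37.0% in mutation 1 against mutation 2. For mutation 1 against mutation 3 that share went from 47.3% to 36.2%. With only those 2 groups, ERBB2 in mutation 1 was at -0.014. Over the fits that left out 1 library, ERBB2 in mutation 1 ran from -0.10 to 0.21, BTC in mutation 1 from -0.15 to 0.037, AREG in mutation 2 from -1.06 to 0.22 and TGFA in mutation 3 from -0.29 to 0.044, each against wild type. HBEGF in mutation 1 against mutation 3 ran from -0.043 to 0.00104, and BTC in mutation 3 against mutation 2 from -0.14 to 0.18. BTC had 35 to 63 counts per library.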
